A study of Mus musculus with 8 samples.

Results

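The antigen presentation genes described here are 10 genes chosen by name from the deposited liver count table: the class II chains H2-Aa, H2-Ab1 and H2-Eb1 with the invariant chain Cd74, and the class I pathway genes H2-K1, H2-D1, B2m, Tap1, Psmb8 and Psmb9. They are 10 of 22946 rows, and all 10 passed the filter on low counts that left 12593 rows for testing. The row of Cd74 is merged with the microRNA gene Mir5107, and its counts cannot be divided between the 2 genes. The study measured liver RNA by RNA-seq in C57 Black mice that were fed for 8 weeks from an age of 8 weeks. The 4 groups, with 2 libraries each, were MLL4 het mice on high fat diet (HFD), MLL4 het mice on normal chow, wild-type mice on HFD and wild-type mice on normal chow. MLL4 (KMT2D) is a histone H3 lysine methyltransferase, and the labels do not describe the het allele, the sex of the mice or the make-up of the diet. The study asked which diet-induced changes depend on MLL4.

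MHC class I molecules consist of a heavy chain and beta-2-microglobulin and show peptides from the cell's own proteins on almost every nucleated cell, hepatocytes included. Those peptides are cut by the proteasome, in which Psmb8 and Psmb9 replace constitutive subunits to form the immunoproteasome, and are pumped into the endoplasmic reticulum by the TAP transporter. MHC class II molecules show peptides from engulfed material and are made mainly by professional antigen-presenting cells, which in the liver include Kupffer cells, dendritic cells and B cells. Interferon gamma induces both pathways.

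The promoters that bear on this grouping were taken from RefSeq tables of assembly GRCm38.p6, in which 8 of the 10 members have a window; H2-Ab1 and Cd74 have none in it. Tap1 and Psmb9 are read in opposite directions from starts that lie 225 bases apart. This shared interval is shown because both genes are described below for diet, where Tap1 was called and Psmb9 was not. It lies at chr17:34187331-34187555 and is written on the plus strand, from the Psmb9 side to the last base before Tap1. The class II windows of H2-Aa (chr17:34287824-34287943, minus strand) and H2-Eb1 (chr17:34305747-34305866, plus strand) are shown for the X and Y boxes of class II promoters. The windows of H2-D1 (chr17:35262919-35263093, plus strand) and B2m (chr2:122147517-122147686, plus strand) are shown for the elements of class I promoters. Each ends at the base before the annotated start.
Tap1-Psmb9: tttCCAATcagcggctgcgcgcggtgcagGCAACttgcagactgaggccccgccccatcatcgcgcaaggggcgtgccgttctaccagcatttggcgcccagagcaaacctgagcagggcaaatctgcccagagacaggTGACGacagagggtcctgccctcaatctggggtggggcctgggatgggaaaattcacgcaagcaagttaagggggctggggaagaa
H2-Aa: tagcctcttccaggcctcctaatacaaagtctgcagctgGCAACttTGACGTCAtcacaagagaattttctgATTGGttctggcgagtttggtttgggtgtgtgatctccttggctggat
H2-Eb1: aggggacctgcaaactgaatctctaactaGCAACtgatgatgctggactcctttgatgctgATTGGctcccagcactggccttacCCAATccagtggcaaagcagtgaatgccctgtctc
H2-D1: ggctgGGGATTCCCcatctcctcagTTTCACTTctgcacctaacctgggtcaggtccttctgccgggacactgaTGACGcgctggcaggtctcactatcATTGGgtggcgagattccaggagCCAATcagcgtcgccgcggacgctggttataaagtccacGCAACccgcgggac
B2m: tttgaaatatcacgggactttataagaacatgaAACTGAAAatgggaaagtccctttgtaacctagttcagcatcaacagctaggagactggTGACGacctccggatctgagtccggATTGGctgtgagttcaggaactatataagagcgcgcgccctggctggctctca
Capitals mark matches, on either strand, to 5 motifs: ATTGG (the inverted CCAAT or Y box, bound by NF-Y), GCAAC (the core of the X1 box, bound by RFX), TGACG (the X2 half-site, bound by CREB family proteins), AANNGAAA (the core of an interferon regulatory factor element) and GGGANNCCC (part of the consensus of NF-kappa-B). Matches to TGACG in H2-Aa and to GGGANNCCC in H2-D1 overlap on the opposite strands. Among 27025 promoters, the 250 bases before the start held ATTGG in 34.5%, GCAAC in 30.1%, TGACG in 17.9%, AANNGAAA in 21.6% and GGGANNCCC in 4.66%. In H2-Aa the X1 core begins 81 bases before the start (position -81), an X2 half-site at -74 and the Y box at -48, and in H2-Eb1 the X1 core begins at -91 and a Y box at -59. Of the members, H2-K1 and H2-D1 held GGGANNCCC. A match is a description of these letters, and none of the 5 motifs was found in the Psmb8 window.

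Libraries held between 14142884 and 18928676 counts, so 3 counts corresponded to between 0.161 and 0.213 CPM (counts per 1000000 reads, scaled with TMM factors) for counting error. The 10 hepatocyte markers, albumin among them, summed to between 70090.1 and 87715.7 CPM. KMT2D is listed under its older mouse symbol Mll2, and its RNA was not lower in the libraries labelled het: it had 62.8 and 75.4 CPM in het-labelled HFD libraries, 60.0 and 72.1 CPM in het-labelled chow libraries, 63.3 and 64.7 CPM in wild-type HFD libraries and 61.2 and 69.6 CPM in wild-type chow libraries. The genotype is therefore given as labelled. Nothing in the labels says that libraries came from separate animals, so the tests take the spread of these libraries as their error, which may be technical. The comparisons share libraries with each other, so their values stand side by side and are not independent.

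The members differed by orders of magnitude in level. Per kilobase of the longest GENCODE transcript, B2m, the light chain shared by class I molecules, ranged over the 8 libraries between 1241 and 1506 CPM per kb, the heavy chain H2-K1 between 571 and 715 CPM per kb, and the heavy chain H2-D1 between 177 and 216 CPM per kb. Cd74 followed at 23.7 to 43.7 CPM per kb. Those 4 levels did not overlap with their neighbours in this order. The remaining levels overlapped with each other: 9.06 to 21.5 CPM per kb for H2-Aa, 8.80 to 18.1 for H2-Ab1, 9.91 to 13.5 for Psmb8, 6.81 to 13.2 for Psmb9, 6.32 to 12.5 for H2-Eb1 and 6.12 to 11.5 for Tap1.

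**Figure D1:**
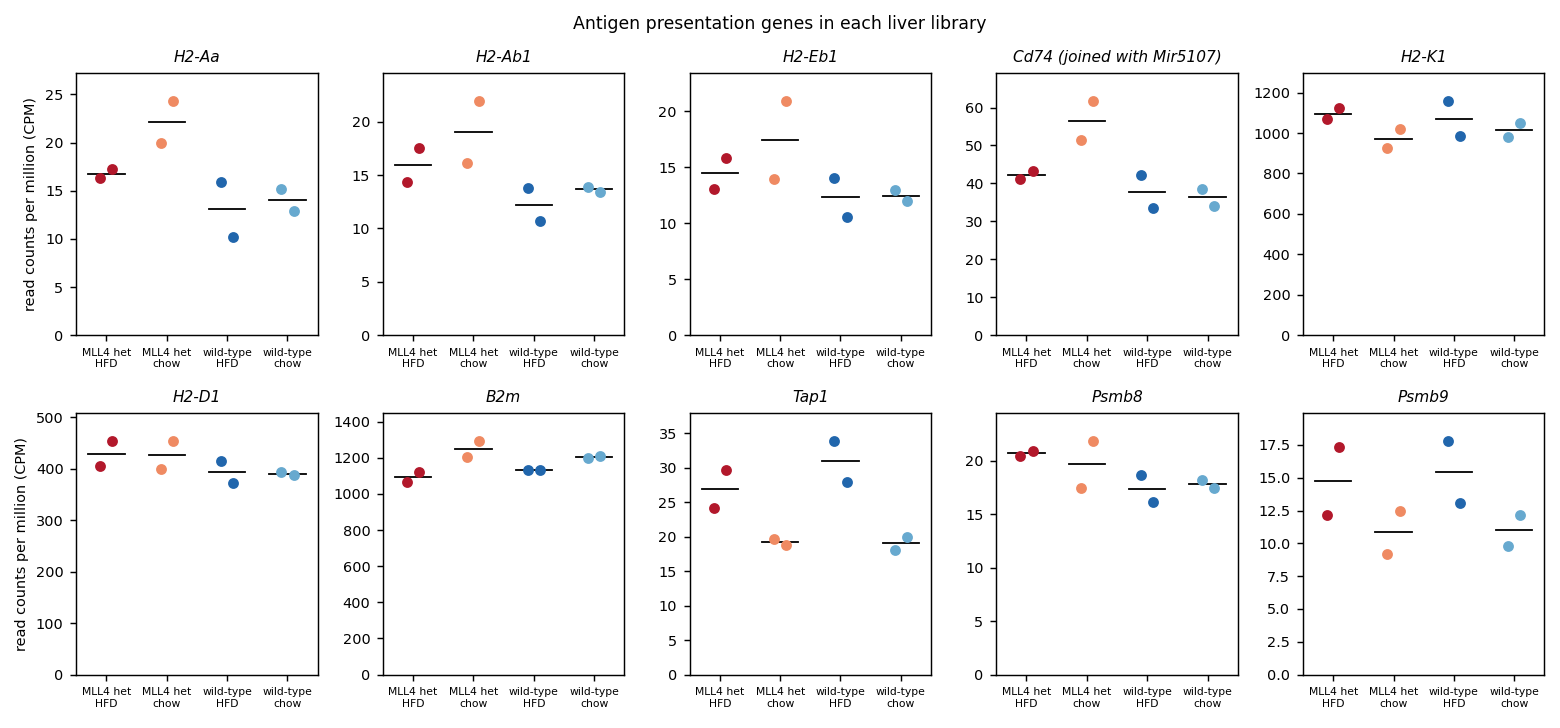
Level of each member in each library (y axis, CPM from 0; x axis, the 4 groups; points, libraries; lines, group means of 2 libraries). Tap1 separates HFD from chow libraries, and the class II genes and Cd74 are highest in the het-labelled chow libraries.

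High fat diet went with more Tap1 RNA. Tap1, which encodes one chain of the peptide transporter, had 24.2 and 29.7 CPM in het-labelled HFD livers, 19.6 and 18.8 CPM in het-labelled chow livers, 33.9 and 28.0 CPM in wild-type HFD livers, and 18.1 and 19.9 CPM in wild-type chow livers. All 4 HFD libraries lay above all 4 chow libraries, and the chow values of the genotypes overlapped. In wild-type livers Tap1 rose 1.63-fold on HFD (log2 change 0.70 ± 0.14 SE, adjusted p = 0.0246 with edgeR's quasi-likelihood test), the only member among 10 to pass that test, where 2.37% of all tested rows rose and 4.59% were called in either direction. In het-labelled livers the fitted Tap1 change was 0.48 ± 0.14 on the log2 scale and did not pass (adjusted p = 0.109, edgeR), where 3.02% of tested rows were called. The difference between those changes was -0.22 (95% interval -0.66 to 0.22, adjusted p = 0.815, edgeR's interaction test), so the diet response of Tap1 was not shown to differ between genotypes. Averaged over genotypes, Tap1 rose 1.51-fold on HFD (log2 0.59 ± 0.10 SE, adjusted p = 0.00669, edgeR), where 10.4% of all tested rows were called, 5.56% rose and 7.19% had all HFD libraries above all chow libraries.

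Without 1 wild-type library, a fit that leaves 1 library in a group, the Tap1 rise in wild-type livers stayed between 0.53 and 0.83. The wild-type call did not hold without each library in turn. It was lost without wild-type HFD library 5 (log2 0.53, adjusted p = 0.188, edgeR), without wild-type chow library 1 (0.61, adjusted p = 0.237) and without wild-type chow library 2 (0.77, adjusted p = 0.106). The average over genotypes kept its call without each of the 8 libraries in turn. Red blood cell transcripts moved with the same contrast: their 3 rows summed to 350 and 371 CPM in het-labelled HFD livers, 240 and 253 CPM in het-labelled chow livers, 828 and 654 CPM in wild-type HFD livers and 320 and 258 CPM in wild-type chow livers, and 2 of the 3 rows rose on HFD in wild-type livers. Their part in the Tap1 result was not tested.

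Psmb9, the immunoproteasome subunit that shares the printed interval with Tap1, had 12.1 and 17.4 CPM in het-labelled HFD livers, 9.21 and 12.5 CPM in het-labelled chow livers, 17.8 and 13.1 CPM in wild-type HFD livers, and 9.83 and 12.2 CPM in wild-type chow livers. HFD and chow libraries overlapped in het-labelled livers and did not overlap in wild-type livers, where 30.6% of all rows had both HFD libraries higher. The fitted Psmb9 diet changes were 0.43 ± 0.23 in het-labelled livers and 0.49 ± 0.23 in wild-type livers on the log2 scale (adjusted p = 0.384 and 0.295, edgeR). Neither passed, and the average over genotypes did not pass (0.46 ± 0.16, adjusted p = 0.120, edgeR).

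Psmb8, the other immunoproteasome member, is the next gene beyond Tap1. It had 20.4 and 21.0 CPM in het-labelled HFD livers, 17.5 and 21.9 CPM in het-labelled chow livers, 18.7 and 16.1 CPM in wild-type HFD livers, and 18.2 and 17.5 CPM in wild-type chow livers. Its groups overlapped between diets in both genotypes, and the fitted Psmb8 diet changes were 0.07 ± 0.13 in het-labelled livers and -0.04 ± 0.13 in wild-type livers (adjusted p = 0.839 and 0.914, edgeR). The 95% interval of the wild-type change reached from -0.34 to 0.26, below the fitted rise of Tap1. Tap2, the gene after Psmb8 and the second chain of the transporter, had fitted diet changes of 0.26 ± 0.14 in het-labelled livers and 0.13 ± 0.14 in wild-type livers (adjusted p = 0.366 and 0.672, edgeR). Along this stretch of chromosome 17 the diet call was made for Tap1 alone among the 8 genes tested from Psmb9 to H2-Eb1, in these 2 within-genotype tests with edgeR.

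**Figure D2:**
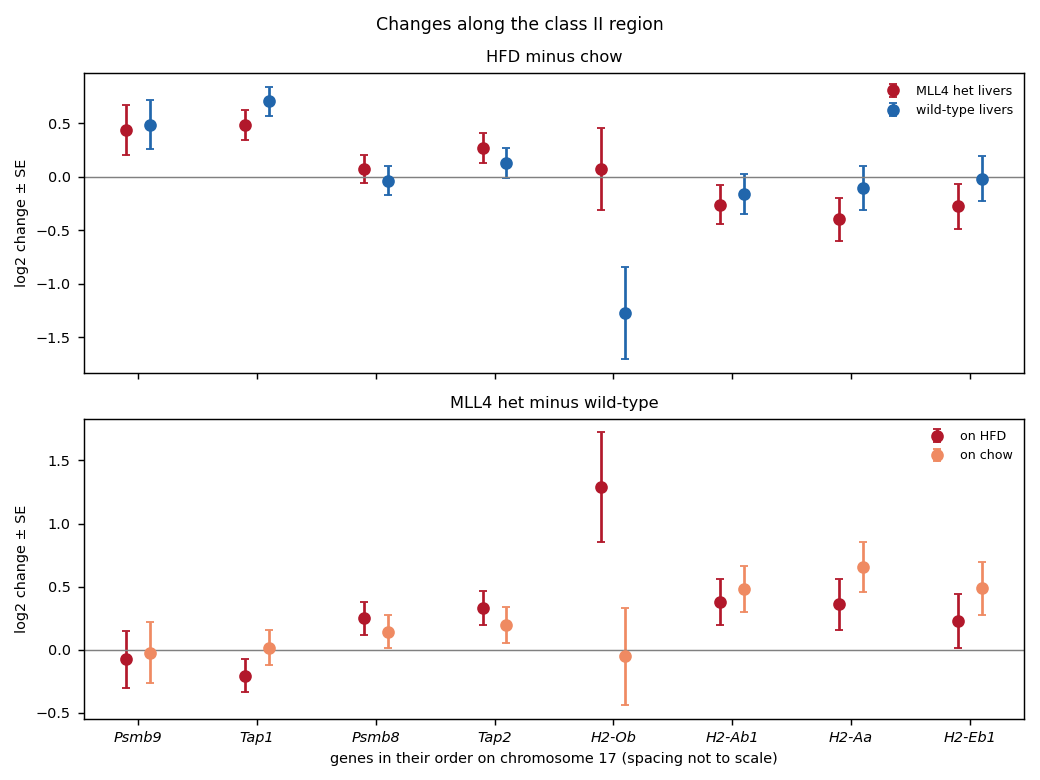
Log2 change ± SE (y axis) of the 8 protein-coding genes in their order on chromosome 17, spacing not to scale, for HFD minus chow in each genotype (top) and MLL4 het minus wild-type on each diet (bottom). Tap1, Psmb9 and Tap2 lie above 0 for diet in both genotypes. The 3 class II members, Psmb8 and Tap2 lie above 0 for genotype on both diets. H2-Ob, whose group means were all under 1 CPM, has the widest errors.

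The class II genes and Cd74 had their highest group means in het-labelled chow livers. H2-Aa, the alpha chain of the I-A molecule, had 16.4 and 17.2 CPM in het-labelled HFD livers, 19.9 and 24.3 CPM in het-labelled chow livers, 15.9 and 10.2 CPM in wild-type HFD livers, and 15.2 and 12.9 CPM in wild-type chow livers. H2-Ab1, its beta chain, had 14.4 and 17.5 CPM in het-labelled HFD livers, 16.2 and 21.9 CPM in het-labelled chow livers, 13.8 and 10.7 CPM in wild-type HFD livers, and 13.9 and 13.4 CPM in wild-type chow livers. For both genes all 4 het-labelled libraries lay above all 4 wild-type libraries, an arrangement that 4.11% of all tested rows showed. H2-Eb1, the beta chain of the I-E molecule, had 13.0 and 15.9 CPM in het-labelled HFD livers, 14.0 and 20.9 CPM in het-labelled chow livers, 14.1 and 10.6 CPM in wild-type HFD livers, and 13.0 and 11.9 CPM in wild-type chow livers. Cd74, the chaperone that occupies the class II groove until the endosome, had 41.1 and 43.2 CPM in het-labelled HFD livers, 51.5 and 61.6 CPM in het-labelled chow livers, 42.1 and 33.4 CPM in wild-type HFD livers, and 38.6 and 34.1 CPM in wild-type chow livers. On chow, the het-labelled and wild-type libraries of all 4 genes did not overlap, and library 4 was the highest of all 8 for each.

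On chow, 0 of these 4 genes passed the test of MLL4 het against wild-type, in which 0.516% of all tested rows were called with edgeR. Each had an unadjusted p under 0.05 in the higher direction, as 8.1% of all rows did, and groups that did not overlap, as 24% of all rows did in that direction. The fitted change on chow was 0.65 ± 0.20 for H2-Aa (adjusted p = 0.181, edgeR), 0.48 ± 0.18 for H2-Ab1 (adjusted p = 0.266), 0.49 ± 0.21 for H2-Eb1 (adjusted p = 0.322) and 0.64 ± 0.14 for Cd74 (adjusted p = 0.0830). Their median was 0.56, against 0.01 over all tested rows. With DESeq2, Cd74 passed on chow (log2 0.62, adjusted p = 0.0205) and the other 3 class II genes did not. Over that alternative and the others tried, the adjusted p of Cd74 on chow lay between 0.0205 and 0.459, the highest being without wild-type chow library 2.

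On HFD the fitted genotype changes of the class II genes were 0.36 ± 0.20 for H2-Aa, 0.38 ± 0.18 for H2-Ab1, 0.23 ± 0.21 for H2-Eb1 and 0.16 ± 0.14 for Cd74, and again 0 of 4 passed with edgeR, where 0.445% of tested rows were called (adjusted p between 0.410 and 0.695). None had an unadjusted p under 0.05 there, as 5.85% of rows had in the higher direction, and 0 passed with DESeq2. Averaged over diets, the changes were 0.51 ± 0.14 for H2-Aa (adjusted p = 0.0895, edgeR), 0.43 ± 0.13 for H2-Ab1 (adjusted p = 0.108), 0.36 ± 0.15 for H2-Eb1 (adjusted p = 0.223) and 0.40 ± 0.10 for Cd74 (adjusted p = 0.0604), where 3.24% of tested rows were called. All 4 had an unadjusted p under 0.05 in that average, as 10.1% of rows had in the higher direction, and DESeq2 called H2-Aa and Cd74 (adjusted p = 0.0485 and 0.0331).

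Diet went the other way for these genes in het-labelled livers, without passing the test. The fitted HFD changes there were -0.40 ± 0.20 for H2-Aa, -0.26 ± 0.18 for H2-Ab1, -0.28 ± 0.21 for H2-Eb1 and -0.42 ± 0.13 for Cd74 (adjusted p between 0.137 and 0.555, edgeR), with 1 of 4 under an unadjusted p of 0.05, as 9.13% of rows were in the lower direction, and 0 called by DESeq2. In het-labelled livers the HFD and chow libraries of H2-Aa and Cd74 did not overlap, as was true in the lower direction for 22.4% of rows. H2-Eb1 changed sign without het-labelled chow library 4 (0.043). In wild-type livers the class II changes on HFD lay between -0.16 and 0.05, with adjusted p of at least 0.700 (edgeR). The interaction was negative for all 4 genes and called for 0 of them. It was -0.48 for Cd74 (95% interval -0.91 to -0.04, unadjusted p = 0.0345, adjusted p = 0.690, edgeR), and no row of the table passed that test (0%), while 900 rows (7.15%) had an unadjusted p under 0.05 and DESeq2 called 29.

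**Figure D3:**
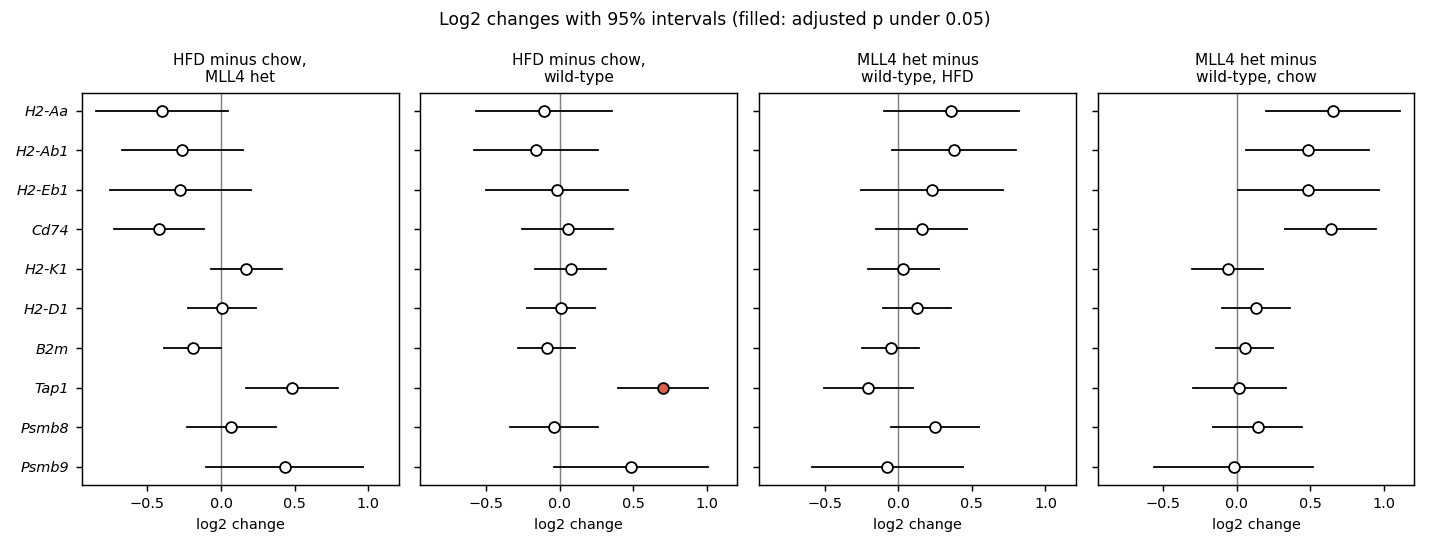
Fitted log2 change with its 95% interval (x axis) for each member in the 4 pairwise comparisons; the filled point has an adjusted p under 0.05. Tap1 on HFD in wild-type livers is the filled one, and the 4 class II intervals on chow lie above 0 before adjustment.

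Kupffer cell markers moved with the class II genes between groups. All 12 markers were detected in every library, and they summed to 308 and 190 CPM in het-labelled HFD livers, 557 and 454 CPM in het-labelled chow livers, 188 and 189 CPM in wild-type HFD livers, and 203 and 186 CPM in wild-type chow livers. On chow, 5 of the 12 rose in het-labelled livers (median log2 change 1.34), and 7 of the 12 fell on HFD in het-labelled livers (median -1.09). DESeq2 called 11 of the 12 in each of these comparisons. Over all tested rows edgeR called 0.516% and 3.02% in them. In the other pairwise comparisons 0 passed with edgeR or DESeq2 (1 and 3 at an unadjusted p under 0.05 for diet in wild-type livers and for genotype on HFD). Leaving out 1 library moved the count of 5 to between 0 and 10, by over 1.5 times for each of the 8 libraries. It moved the count of 7 to between 0 and 8, by over 1.5 times for each library other than het-labelled HFD library 7. Within each het-labelled group the order was the reverse of the class II order. Het-labelled HFD library 8 had the higher class II sum (93.8 against 84.9 CPM in library 7) and the lower Kupffer sum, and het-labelled chow library 4 had the higher class II sum (129 against 101 CPM in library 3) and the lower Kupffer sum. In bulk liver, fewer cells of a type and less RNA per cell cannot be told apart, and the part of Kupffer cells in the class II values was not tested.

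Markers of dendritic cells and B cells were scarce. The 10 dendritic cell rows summed to 9.01 and 7.75 CPM in het-labelled HFD livers, 9.50 and 9.59 CPM in het-labelled chow livers, 6.41 and 8.37 CPM in wild-type HFD livers, and 7.69 and 8.23 CPM in wild-type chow livers. No dendritic cell row was at 0 in all libraries. Of these rows 5 passed the filter, and 0 were called in the 7 comparisons with edgeR or DESeq2 (3 of 35 tests had an unadjusted p under 0.05). The 9 B cell rows summed to between 3.92 and 6.43 CPM, and 0 of the 4 tested were called with either tool (3 of 28 tests under an unadjusted p of 0.05). The 10 sinusoidal endothelial markers summed to between 188 and 289 CPM, also with 0 called by either tool (5 of 70 tests under an unadjusted p of 0.05). The leukocyte and myeloid rows summed to 66.1 and 37.8 CPM in het-labelled HFD livers, 125 and 112 CPM in het-labelled chow livers, 40.1 and 39.3 CPM in wild-type HFD livers, and 50.7 and 45.0 CPM in wild-type chow livers, and both het-labelled chow libraries were the highest of all 8. Of 8 tested rows, edgeR called 1 higher in het-labelled livers on chow, 2 lower on HFD in het-labelled livers and 4 higher in het-labelled livers averaged over diets. DESeq2 called 4 in each of these comparisons. Over all tested rows edgeR called 0.516%, 3.02% and 3.24% in them. Cd68, a lysosomal protein of macrophages, was higher by 1.28 ± 0.20 in het-labelled chow livers on the log2 scale (adjusted p = 0.0459, edgeR) and fell by 1.07 ± 0.20 on HFD in het-labelled livers (adjusted p = 0.0285), where Lyz2, the lysozyme of myeloid cells, fell by 1.47 ± 0.27 (adjusted p = 0.0269). Leaving out a library gave 0 to 4, 0 to 3 and 0 to 4 edgeR calls in the 3 comparisons, and each count was 0 without het-labelled chow library 3, wild-type chow library 1 or wild-type chow library 2. For genotype on chow and averaged over diets it was also 0 without wild-type HFD library 5 or 6. The part of these cells in the class II values was not tested.

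**Figure D4:**
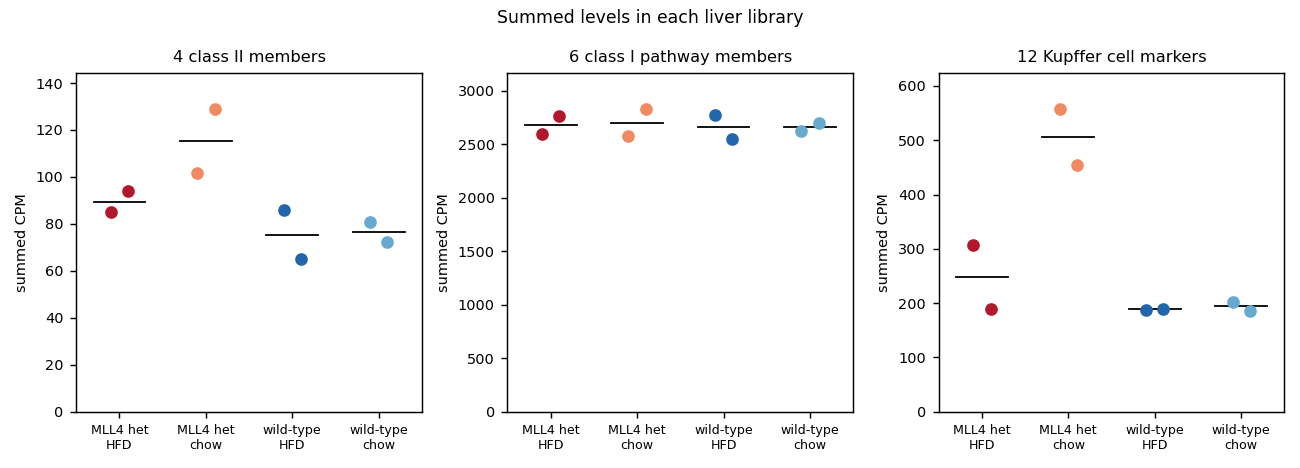
Summed CPM per library (y axis from 0) of the 4 class II members, the 6 class I pathway members and 12 Kupffer cell markers, by group (points, libraries; lines, group means). The class I sums consist mostly of B2m, H2-K1 and H2-D1 and lie between 2545 and 2824 CPM in all groups. The class II and Kupffer sums are highest in het-labelled chow livers.

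Some of the enzymes that work on class II cargo in the lysosome were higher in het-labelled chow livers. Against wild-type chow livers, the fitted change was above 0 for 4 of the 7 tested and below 0 for 3. Those 3 changes lay between -0.31 and -0.11, and 0 were called lower. The 7 rows summed to a mean of 1440 CPM in het-labelled chow livers and 1493 CPM in wild-type chow livers. Of 7 tested, edgeR called 2 higher in het-labelled livers on chow, and the same 2 lower on HFD in het-labelled livers. They were Ctss, the cathepsin that trims the invariant chain, and Lgmn, an asparagine-specific protease. Over all tested rows edgeR called 0.516% and 3.02% in these 2 comparisons. Ctss had 19.7 and 14.4 CPM in het-labelled HFD livers, 36.4 and 29.4 CPM in het-labelled chow livers, 14.5 and 11.5 CPM in wild-type HFD livers, and 14.2 and 13.6 CPM in wild-type chow livers. It was higher by 1.24 ± 0.18 on the log2 scale in het-labelled chow livers than in wild-type chow livers (adjusted p = 0.0407, edgeR) and changed by -0.94 ± 0.18 on HFD in het-labelled livers (adjusted p = 0.0296). For Lgmn the same changes were 0.85 ± 0.14 (adjusted p = 0.0464) and -0.77 ± 0.14 (adjusted p = 0.0269, edgeR). Both genotype calls were lost without any 1 of het-labelled chow library 3, wild-type HFD libraries 5 and 6 and wild-type chow libraries 1 and 2, with adjusted p between 0.0555 and 0.316 for Ctss and between 0.0801 and 0.328 for Lgmn. Both diet calls were lost without any 1 of het-labelled HFD library 8, het-labelled chow library 3 and wild-type chow libraries 1 and 2, with adjusted p between 0.0592 and 0.0987 for Ctss and between 0.0557 and 0.0810 for Lgmn, and with only the 2 groups compared in the fit (0.0918 for Ctss and 0.103 for Lgmn). The Kupffer sums given above were high in the same libraries. Averaged over genotypes, Ifi30, the lysosomal thiol reductase, also fell on HFD (-0.44 ± 0.11, adjusted p = 0.0325, edgeR), where 10.4% of all tested rows were called. It passed in neither genotype alone (adjusted p = 0.0608 in het-labelled and 0.413 in wild-type livers, edgeR). Of the 7 rows, edgeR called 3 in that average and DESeq2 called 2.

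Other class II genes were low or not detected. H2-DMa and H2-DMb1, chains of the molecule that exchanges peptide in the groove, had at most 2.62 and 3.12 CPM, and of the 7 other class II rows 3 were tested and 0 called with edgeR or DESeq2 (6 of 21 tests had an unadjusted p under 0.05). H2-Ea-ps, the E alpha gene that is not expressed in mice of the b haplotype such as C57BL/6, had 0 counts in all 8 libraries. Among the 9 regulators of MHC promoters, 0 were called in the 7 comparisons with edgeR or DESeq2 (10 of 63 tests had an unadjusted p under 0.05). Ciita, the class II transactivator, lay between 0.569 and 1.91 CPM, and Nlrc5, the class I transactivator, between 18.9 and 29.7 CPM; both were named after their values were seen.

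The class I heavy chains and their light chain differed little between groups. H2-K1 had 1069 and 1121 CPM in het-labelled HFD livers, 924 and 1021 CPM in het-labelled chow livers, 1157 and 983 CPM in wild-type HFD livers, and 982 and 1048 CPM in wild-type chow livers. H2-D1 had 406 and 453 CPM in het-labelled HFD livers, 399 and 455 CPM in het-labelled chow livers, 415 and 372 CPM in wild-type HFD livers, and 394 and 387 CPM in wild-type chow livers. B2m had 1068 and 1120.2 CPM in het-labelled HFD livers, 1202 and 1296 CPM in het-labelled chow livers, 1133 and 1133 CPM in wild-type HFD livers, and 1197 and 1210.2 CPM in wild-type chow livers. All 4 HFD libraries of B2m lay below all 4 chow libraries, as in 5.88% of rows, and the ranges of H2-D1 overlapped between diets in both genotypes.

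None of H2-K1, H2-D1 and B2m passed any of the 7 tests with edgeR or DESeq2. The largest pairwise changes in size were 0.17 for H2-K1, 0.13 for H2-D1 and 0.19 for B2m on the log2 scale. In the 4 pairwise comparisons the 95% intervals reached no farther than -0.30 and 0.41 for H2-K1, -0.22 and 0.36 for H2-D1 and -0.38 and 0.25 for B2m. The diet change of B2m averaged over genotypes was -0.14 (95% interval -0.28 to -0.0022, unadjusted p = 0.0471, adjusted p = 0.191, edgeR). H2-K1 shares 8.79% and H2-D1 14.3% of the 50-base windows of the longest transcript with other genes, so part of the counts of these heavy chains may have been assigned elsewhere or lost. For Tap1 that share was 0.861%, and for the other 7 members it was 0.

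Among 13 other class I heavy chain rows tested, 0 were called in the 4 pairwise comparisons with edgeR, while DESeq2 called 1 for genotype on each diet. At an unadjusted p under 0.05 the pairwise counts lay between 0 and 4. Averaged over diets, 2 were lower in het-labelled livers, where 3.24% of all tested rows were called. H2-Q10, a secreted class I molecule made by hepatocytes, had 1490.1 and 1517 CPM in het-labelled HFD livers, 1303 and 1467 CPM in het-labelled chow livers, 2221 and 1889 CPM in wild-type HFD livers, and 1941 and 1915 CPM in wild-type chow livers (log2 -0.46 ± 0.08, adjusted p = 0.0220, edgeR). All 4 het-labelled libraries of H2-Q10 lay below all 4 wild-type libraries, as in 4.24% of rows. H2-Q1 changed by -0.47 ± 0.10 (adjusted p = 0.0443). The H2-Q10 call was lost without het-labelled chow library 3, wild-type HFD library 5 or wild-type chow library 1 or 2 (adjusted p between 0.0606 and 0.107), and that of H2-Q1 without those or without het-labelled HFD library 7 or 8 (0.0633 to 0.177).

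The balance between pathways was compared within libraries. The class I sum consists mostly of B2m, H2-K1 and H2-D1, so a ratio to it says little about Tap1, Psmb8 or Psmb9. The 4 class II members summed to 3.27% and 3.40% of the 6 class I pathway members in het-labelled HFD livers, 3.95% and 4.56% in het-labelled chow livers, 3.10% and 2.55% in wild-type HFD livers, and 3.08% and 2.69% in wild-type chow livers. All het-labelled ratios lay above all wild-type ratios, by 0.40 on the log2 scale (exact permutation test within diets, 2-sided, p = 0.0556, the smallest that 36 permutations allow). For diet the difference was -0.19 (exact permutation p = 0.167), and -0.38 with means of log2 CPM in place of summed counts (exact permutation p = 0.0556). Such means weight each member equally, so the -0.38 also holds the changes of Tap1 and Psmb9 (0.59 and 0.46 averaged over genotypes). The class II changes in that average lay between -0.25 and -0.15, and the class I changes between -0.14 and 0.59. The ratio of the immunoproteasome subunits Psmb8, Psmb9 and Psmb10 to the constitutive subunits Psmb5, Psmb6 and Psmb7 was 19.2% and 22.2% in het-labelled HFD livers, 19.5% and 20.5% in het-labelled chow livers, 18.2% and 14.8% in wild-type HFD livers, and 16.2% and 17.1% in wild-type chow livers. It was higher by 0.30 in het-labelled libraries (exact permutation p = 0.0556) and differed by 0.01 between diets (exact permutation p = 1). With Psmb8 and Psmb9 alone in the numerator, an alternative chosen after seeing the data, the genotype difference was 0.17 (exact permutation p = 0.167), with overlapping genotypes, and the diet difference was 0.18 (exact permutation p = 0.167). Psmb10, which is no member here, differed by 0.43 ± 0.10 between genotypes averaged over diets on the log2 scale (adjusted p = 0.0578, edgeR). The design could not reach a p under 0.05 in any of these ratio tests.

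With edgeR, 0 genes of the interferon gamma response were called higher on HFD in the comparisons that called Tap1. Of 17 tested, 0 were called on HFD in wild-type livers with edgeR (3 at an unadjusted p under 0.05) and 1 with DESeq2. In het-labelled livers 1 of 17 fell on HFD: Ifngr1, a chain of the interferon gamma receptor, by -0.59 ± 0.12 (adjusted p = 0.0439, edgeR), a call that was lost without any 1 of the 8 libraries (0.0651 to 0.144) and with DESeq2 (0.0985). The median over the 17 was -0.13 in het-labelled livers and -0.09 in wild-type livers, against -0.01 and 0.02 over all tested rows. In wild-type livers the 17 diet changes lay between -0.50 and 0.72, above 0 for 6 and below 0 for 11. Averaged over genotypes, edgeR called 2 of the 17, both lower on HFD, where 10.4% of all tested rows were called. Ifngr1 was 1 of them (-0.40 ± 0.09, adjusted p = 0.0245, edgeR). For genotype on chow, the changes of the 17 were above 0 for 13 and below 0 for 4. Their median was 0.30, against 0.01 over all tested rows, and 0 were called with edgeR or DESeq2 (6 at an unadjusted p under 0.05). Averaged over diets the median was 0.29. There edgeR called 1, Ifngr1, higher in het-labelled livers (0.41 ± 0.09, adjusted p = 0.0443), where 3.24% of all tested rows were called, and DESeq2 called 0. The part of interferon gamma in the Tap1 result and in the class II values was not tested.

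The 4 class II members varied together over the 8 libraries, with pairwise Pearson r of log2 CPM between 0.902 and 0.965. This is a description of values that share libraries and scaling, and it was not particular to class II. With these 4 genes, H2-D1 had r between 0.735 and 0.921 and Psmb8 between 0.654 and 0.843. For H2-K1, B2m, Tap1 and Psmb9 it was at most 0.516. Among 8994 other rows with a mean of at least 5 CPM, those most like the summed class II members were Dnm2 (r = 0.966), Fam49b (0.935), Usp18 (0.933), Zfp207 (0.924), Tmem87b (0.920), Cdc42bpg (0.914), the merged row of Serpina3f and Serpina3g (0.905) and Trim21 (0.903). The row most like the summed class I pathway members was the merged row of the class I genes H2-T9 and H2-T22 (r = 0.964), followed by Sub1 (0.932).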

How the data were processed

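RNA-seq of mouse liver gave 8 libraries, 2 in each of 4 groups that the titles name. The authors deposited raw read counts for each gene, as whole numbers without normalization, per the file headers and values. The submitters' processing notes name TopHat2, HTSeq, CASAVA and DESeq with build mm9; versions, settings and roles are not given in the sources used here. No source states whether strand was kept, so reads of a gene and of an overlapping or antisense partner cannot be separated. The 374 rows that join several symbols were kept whole.

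The counts were tested with edgeR 4.0.16 (R 4.3.3): filterByExpr, TMM factors and the 2-sided quasi-likelihood test, with 4 group means fitted to all 8 libraries (residual df 4, prior df 4.77, common biological coefficient of variation 11.2%). Of 22946 rows 12593 were tested, and 5826 had 0 counts in all libraries. Adjustment was over every tested row (Benjamini-Hochberg), with calls under 0.05. SEs were derived from the log2 change and the test statistic, so they and the 95% intervals are approximate. The 7 comparisons were diet within each genotype, genotype within each diet, their interaction, and diet and genotype averaged over the other factor. Libraries of a group differed beyond counting error (chi-square over its degrees of freedom between 15.8 and 17.3), and none was merged. The steps were tested on simulated counts. The alternatives were DESeq2 1.42.0, other scalings, filters and spreads, fits to only the 2 groups compared, and leaving out each library, with the immunoproteasome ratio without Psmb10 added after seeing the data.

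The members and 18 gene lists were chosen with earlier results of these data known. The rule for naming took all 10 members, from each list up to 4 called members by smallest adjusted p or else up to 3 by level, and the 8 rows most like each summed set. The texts name part of these. Adgre1 is listed as Emr1. H2-Q5, H2-L and Ighm were not analysed here. 1 gene of the interferon gamma list is counted but not reported here by name. The reference, GRCm38, differs from the build behind the counts and gave only names, gene order, RefSeq promoters and GENCODE transcript lengths. CPM per kb uses the longest protein-coding transcript, which need not be the model that was counted.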

Additional observations from a re-analysis of the deposited data

How the results depend on the processing

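No paired analysis was possible because the library numbers run from 1 to 8 over the groups, which share none of them. Of the comparisons of the 10 members, the count called on chow for genotype was 0 and became 1 (Cd74) without a filter on low counts and with DESeq2. The count for genotype averaged over diets was 0 and became 2 (H2-Aa and Cd74) without a filter and with DESeq2, and 1 (Cd74) with a robust spread. The count for diet in wild-type livers was 1 (Tap1) under every setting but leaving out a library, where it lay between 0 and 1. The count for diet averaged over genotypes was 1 (Tap1) under every setting tried. Leaving out a library, the diet difference of the immunoproteasome ratio lay between -0.062 and 0.088, and the HFD change of H2-Eb1 in het-labelled livers between -0.54 and 0.043. With means of log2 CPM in place of summed counts, the diet difference of the class II to class I ratio was -0.38 in place of -0.19 (exact permutation p = 0.0556).

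Over all tested rows, calls for diet in wild-type livers numbered 578 and became 1351 with only the 2 groups. For diet in het-labelled livers 380 became 680 without a filter and 105 with 2 groups. For genotype on HFD 56 became 258 without a filter, 241 with DESeq2, 101 with a robust spread and 26 with 2 groups, and on chow 65 became 314, 227 and 114 under the first 3 of these. For genotype averaged over diets 408 became 760 without a filter. The interaction had 0 calls, 8 without a filter, 29 with DESeq2 and 2 with a robust spread. Leaving out a library gave 98 to 896, 144 to 293, 12 to 177, 1 to 268, 23 to 722 and 0 to 14 calls in these 6 comparisons, and 546 to 1388 for diet averaged over genotypes, which had 1309. The cause was not tested. With 2 libraries a group, other scalings shifted all rows by a median of between -0.0239 and 0.0215 on the log2 scale. Genes near 1 CPM, such as Ciita, rest on few counts.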

Other observations

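Cd4, the co-receptor that binds MHC class II on helper T cells, was the one T and NK cell row that was called. It had 3.59 and 3.06 CPM in het-labelled HFD livers, 1.35 and 2.04 CPM in het-labelled chow livers, 3.23 and 3.83 CPM in wild-type HFD livers, and 1.58 and 2.61 CPM in wild-type chow livers. Averaged over genotypes Cd4 rose on HFD by 0.86 ± 0.21 on the log2 scale (adjusted p = 0.0355, edgeR's quasi-likelihood test). All 4 of its HFD libraries lay above all 4 chow libraries, as in 7.19% of rows, and DESeq2 did not call it. Of the other 11 T and NK cell rows only Lck passed the filter on low counts, and the chains Cd3e, Cd3d and Cd3g lay at or under 0.497 CPM.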
